A study of Mus musculus with 6 samples.

Results

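The MYC and MAX network was followed through 10 genes (Myc, Mycn, Max, Mxd1, Mxd3, Mxd4, Mxi1, Mnt, Mlx and Mga) out of 18194 genes that an expression array reads through at least 1 unshared probe set. The members were taken by gene name. They have 26 probe sets among 45101, and for each gene the probe set with the highest mean over 6 arrays stood for it, with the others given beside it. All 10 genes passed the filter on dim probe sets, through 22 of their 26 probe sets. The cells were 32D, a mouse myeloid line that depends on interleukin-3. The construct listed as C2-MiR-9, present in 3 samples, encodes miR-9 together with miR-9*, both of which derive from 1 microRNA precursor. The other 3 samples had the construct listed as A1-EV, an empty vector. All 6 samples grew in interleukin-3 (10 ng/ml) and serum (10% fetal calf serum), and the titles number the samples 1 to 3 within each group. The replicates are called independent, but clones, infections and cultures behind each group are not described, so p-values may measure technical spread only. Mature microRNA was not measured on these arrays, so the expression of the construct was not checked here.

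MYC and MYCN are transcription factors of the basic helix-loop-helix leucine zipper class that drive ribosome production, metabolism and entry into the cell cycle. They bind the E-box CACGTG only as partners of MAX. MXD1, MXD3, MXD4, MXI1 and MNT compete for MAX and recruit the SIN3 corepressor, MLX pairs with MNT and some MXD proteins and with the MONDO factors, and MGA pairs with MAX in a repressive complex. In blood progenitors, growth factors such as interleukin-3 keep MYC high, and MXD proteins are known to rise as cells leave the cycle and differentiate.

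The strands that distinguish the groups are shown with the seed, bases 2 to 8, in capitals, since the seed is what a microRNA pairs with in its targets. The sequences are the mature mouse forms of RefSeq (GRCm38.p6), where each is listed at 3 loci. In the nomenclature of that table miR-9 is the 5p strand and miR-9* the 3p strand.
mmu-miR-9-5p: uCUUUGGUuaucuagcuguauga
mmu-miR-9-3p: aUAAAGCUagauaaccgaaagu
The seeds differ, so each strand has its own set of matching sites. Target sites in the transcripts of the members were not analysed here.

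Network proteins bind the promoters of several network genes, and the E-box CACGTG, a palindrome that reads the same on both strands, was searched in RefSeq promoter windows from 250 bases before to 50 bases after the start. A window was found for 9 members, all but Myc, and 4 of these genes held the motif: Mxd4, Mnt, Mlx and Max. By window it was in 4 of the 11 windows of these genes, against 7.15% of all 32851 windows, and by gene in 4 of 9, against 8.09% of 27025 genes. Mxd4 and Mnt are among the genes called between replicate numbers below. Mlx and Max carry the motif without such a call for their main probe sets with all arrays in the fit. Mxi1, also called, did not hold the motif, and Myc, also called, had no window. A link between the motif and these calls was not tested. The matches are shown as 30 bases in the direction of transcription with the E-box in capitals.
Mxd4, chr5:34187912-34187941, minus strand, 219 bases before the start: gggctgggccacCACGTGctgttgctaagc
Mnt, chr11:74830789-74830818, plus strand, 123 bases before the start: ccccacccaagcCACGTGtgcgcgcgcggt
Mlx, chr11:101087238-101087267, plus strand, 40 bases before the start: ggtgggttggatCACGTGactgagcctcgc
Max, chr12:76962234-76962263, minus strand, 3 bases before the start: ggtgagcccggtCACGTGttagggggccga
A match is a stretch of letters and not a measured binding site.

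Values are MAS5 signals on a linear scale, with array medians from 11.99 to 15.19 and Spearman correlations between arrays from 0.919 to 0.942. Differences are given on the log2(signal + 16) scale, which understates the change of dim genes. The largest axis of variation, with 45.7% of the variance of 10208 tested genes, separated the 2 arrays numbered 3, at 17.9 and 23.9 on that axis, from the other 4, at -17.6 to -2.88. Same-numbered arrays of the groups deviated together from their group means (correlations 0.491, 0.616 and 0.680). The comparison of the groups was therefore also made with the replicate number as a block. Of 10 markers of immature myeloid cells, 9 lay above the filter, among them Ptprc, Spi1, Mpo and Prtn3, and Elane did not exceed 15.1 on any array. Of 6 lymphoid markers only Nkg7 lay above it.

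No network gene passed the test between miR-9/9* and empty vector cells. In limma 0 of 10 passed without a block, with 0 at an unadjusted p under 0.05. With the block 0 of 10 passed, with 4 at an unadjusted p under 0.05. These 4 were Mycn, Max, Mxd3 and Mxi1, all with lower means in miR-9/9* cells on their main probe sets. Of all 10208 genes 0.0588% passed without the block, 0.0196% higher and 0.0392% lower, and 2.96% with it, 1.51% higher and 1.45% lower. At an unadjusted p under 0.05 the shares were 4.6% and 17%. The median log2 difference of the members was -0.07, against 0.01 for all genes, and the median size 0.13 against 0.10. Among the 26 other ways of computing the comparison, 0 members passed in any. Mxd1 fell below the filter, and was not tested, with a stricter filter or with probe sets averaged per gene. The split of all calls without the block was 2 higher and 4 lower, 3 and 2 after quantile normalization, and 3 and 3 with arrays centred on their medians.

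Myc (probe set 1424942_a_at, its only set) was at 974, 997 and 496 on the empty vector arrays numbered 1, 2 and 3, and at 1160, 953 and 570 on the miR-9/9* arrays. The groups overlapped almost fully, and the low array of each group was the one numbered 3. The means were 823 ± 283 and 895 ± 299 (SD, n = 3). The log2 difference was 0.13, with a 95% interval from -0.59 to 0.84 without the block and from -0.05 to 0.30 with it (limma, block adjusted p = 0.468). Within numbers it was 0.25, -0.06 and 0.19. A change of 2-fold in either direction lies outside both intervals. The sign of the difference turned without empty vector replicate 3 (-0.20) and without miR-9/9* replicate 1 (-0.09).

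Mycn, the family member best known from neural and early progenitors, gave 3 probe sets that did not tell the same story. The brightest, 1425923_at, was at 4673, 4755 and 6465 with the empty vector and at 4538, 4074 and 3785 with miR-9/9*. All 3 miR-9/9* arrays lay below all 3 empty vector arrays, and the gap was widest for number 3. The means were 5298 ± 1012 and 4132 ± 379 (SD, n = 3), a log2 difference of -0.34 (SE 0.152, limma adjusted p = 0.999, and 0.234 with the block). Another set, 1417155_at, was at 269, 576 and 650 against 363, 742 and 710. It was higher with miR-9/9* in each number, with a log2 difference of 0.30 (block adjusted p = 0.102 in the fit over all probe sets). The dimmest, 1425922_a_at, ranged from 34.2 to 63.9, with a log2 difference of 0.15. Averaged over the sets the difference was 0.03, so these data give no single direction for Mycn.

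Max, the partner that both MYC proteins and their antagonists need, was measured by 1423501_at at 115, 161 and 149 with the empty vector and at 96.2, 87.7 and 138 with miR-9/9*. It was lower in each number, yet the groups overlapped. The means were 142 ± 24.1 and 107 ± 27.2, with a log2 difference of -0.36 (95% interval -0.79 to 0.07, and -0.66 to -0.07 with the block). These intervals are for single genes, and over all genes the block adjusted p was 0.199. The difference kept its sign under all 26 alternatives, between -0.54 and -0.16.

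**Figure D1:**
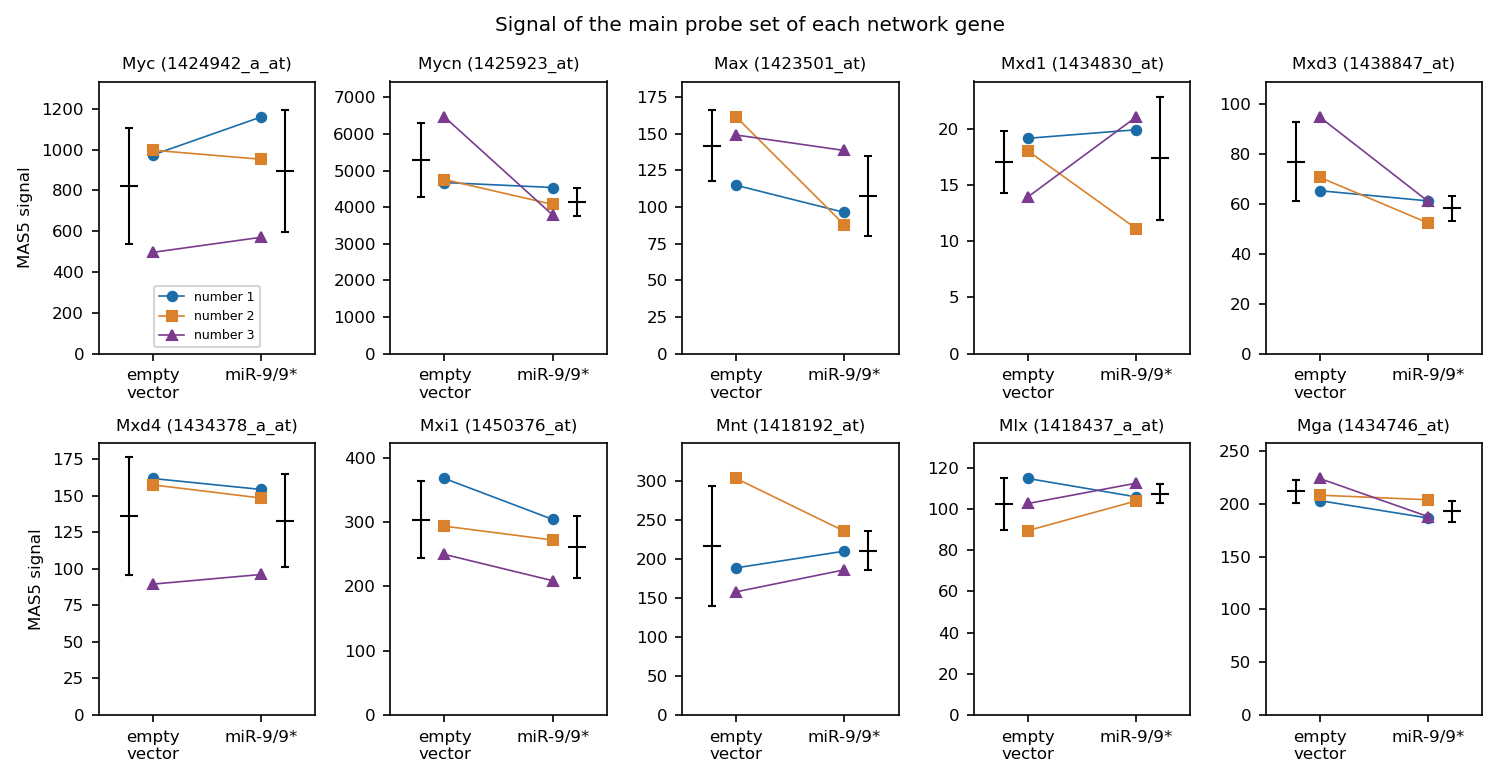
MAS5 signal (linear axes from 0) of the main probe set of each of the 10 genes, with lines joining the arrays of the same replicate number and black bars giving mean and SD of the 3 arrays of a group. The arrays numbered 3 are the low ones for Myc, Mxd4, Mxi1 and Mnt in both groups, and the groups are separated only for Mycn and Mxd3.

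Among the MAX-binding repressors, Mxd3, which is known from cells in S phase, had the largest difference. Its set 1438847_at was at 65.3, 70.7 and 94.9 with the empty vector and at 61.2, 52.4 and 61.1 with miR-9/9*, without overlap. The log2 difference was -0.31 (SE 0.159, limma adjusted p = 0.999, block adjusted p = 0.233). A further set, 1448878_at, stood at -0.27 and had the lower value with miR-9/9* in every number, while the dim 1422970_at stood at -0.03. Separated groups with miR-9/9* lower were seen on the main probe sets of 2 of 10 members, Mycn and Mxd3, against 4.74% of all genes. With miR-9/9* higher they were seen for 0 members, against 5.07%, and 9.82% of all genes were separated in either direction.

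Mxi1, also a MAX-binding repressor, was at 368, 293 and 250 with the empty vector and at 304, 272 and 209 with miR-9/9* (1450376_at). Each miR-9/9* array was below its number's empty vector array, and the groups overlapped because the numbers differed by more than the groups. The log2 difference was -0.20 with an SE of 0.0725 in the blocked fit, where limma gave an adjusted p of 0.198. The second set, 1425732_a_at, stood at -0.03. By main probe set all 3 pairs went the same way for 5 of the 10 members: Mycn, Max, Mxd3, Mxi1 and Mga, all lower. Of all genes 39% had pairs of the same sign, in either direction, and the share lower in all 3 was not computed. For Mycn the set 1417155_at was instead higher in all 3 pairs.

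The other repressors had group differences near 0. Mxd4 (1434378_a_at) was at 162, 157 and 89.5 against 154, 148 and 96.1, a log2 difference of -0.02 with a block interval from -0.22 to 0.18. Mnt, the broadly expressed antagonist of MYC, was at 188, 303 and 158 against 210, 235 and 186 (1418192_at), a difference of 0.01 with a block interval from -0.24 to 0.26. Its miR-9/9* arrays lay inside the range of the empty vector arrays. Mxd1, the member that marks terminal myeloid differentiation, was dim, between 11.1 and 21.1 on its main set 1434830_at, and its difference of 0.00 had a block interval from -0.38 to 0.38. Another set ranged from 10.9 to 28.6 and the remaining set lay below the filter, at no more than 9.86, so Mxd1 rests on signals close to the filter at 12.9.

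Mlx and Mga, which link the network to metabolic E-box factors and to chromatin repression, did not pass either. Mlx was at 115, 89.5 and 103 against 106, 104 and 112 (1418437_a_at), a log2 difference of 0.07 with a block interval from -0.16 to 0.29. Mga was at 203, 208 and 224 against 186, 204 and 188 (1434746_at), a difference of -0.13 with a block interval from -0.31 to 0.05. The groups overlapped only through miR-9/9* number 2 and empty vector number 1. Of its 5 probe sets 3 lay above the filter, and beside the main set 1431232_a_at stood at 0.00 and 1422646_at at -0.17, with lower values with miR-9/9* in all 3 numbers.

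**Figure D2:**
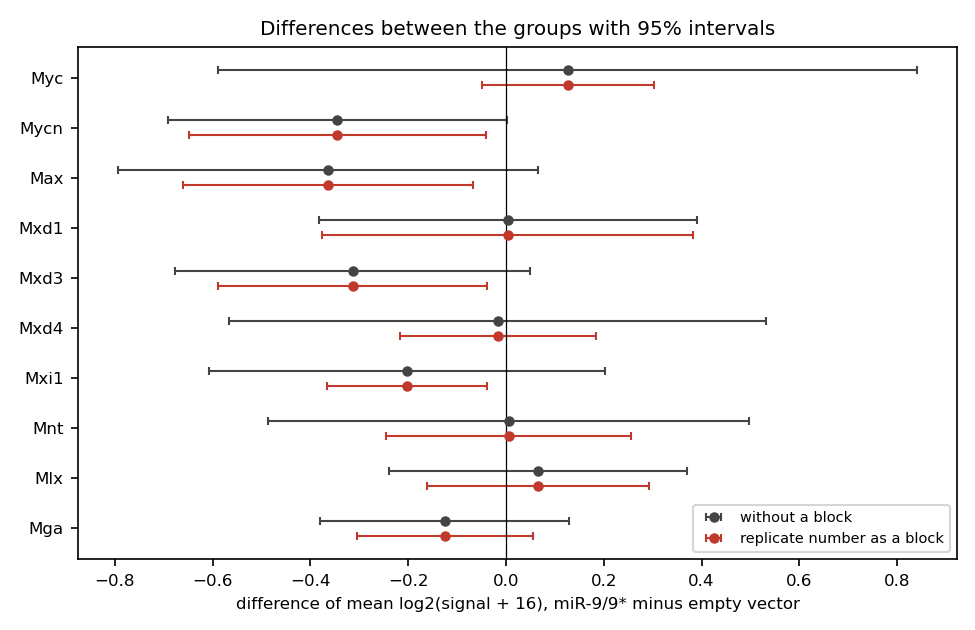
Difference of mean log2(signal + 16), miR-9/9* minus empty vector, for the main probe set of each gene, with 95% intervals of limma without a block (grey) and with the replicate number as a block (red). The intervals are not adjusted for the number of genes. With the block they lie below 0 for Mycn, Max, Mxd3 and Mxi1, and none of the adjusted p-values passed.

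Replicate numbers separated network genes that the groups did not. In a moderated F test of the number, with the group as a term, 4 of 10 members passed: Myc, Mxd4, Mxi1 and Mnt. All 4 also made up the members with an unadjusted p under 0.05, against 40.7% of all genes. Of all genes 24.3% passed, so the members' share, with so few genes, is not read as particular to them. For all 4 the arrays numbered 3 had the lowest mean. Among the 2479 genes called, number 3 was lowest for 1213 and highest for 939. The calls had number 3 above number 1 for 1055 genes and below it for 1424. With arrays centred on their medians this turned to 1608 and 866, while Myc, Mxd4 and Mxi1 stayed lower and called. What a number shares is not stated, so culture, passage and processing cannot be told apart.

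Myc averaged 1067 in number 1, 975 in number 2 and 533 in number 3 (2 arrays each). On the log2 scale number 3 was -0.98 from number 1 and number 2 was -0.12 from it, with an SE of 0.0952 (limma F test, adjusted p = 0.000801). The number took 95.6% of the sum of squares of Myc and the group 2.02%, against medians of 63.6% and 10.4% over all genes. On main probe sets the group took a larger share than the number for Mycn, Max, Mxd3 and Mga, from 40.5% to 56.7%. The number took 8.19% to 32.8% and the remainder 18.3% to 40.9%, the most for Mycn. The Mycn set 1417155_at moved with the number, as given below. The call of Myc held under all 8 alternatives (adjusted p from 0.000517 to 0.0232). It rested on number 3: without it the adjusted p was 0.435, and 0 of 10 members passed in limma (2 at an unadjusted p under 0.05), while 790 of all genes still did. Without number 1 the members called were Myc, Mxd4 and Mnt, and without number 2 Myc, Mxd4, Mxi1 and Max (adjusted p of Max 0.0365).

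Mxd4 averaged 158, 153 and 92.8 in numbers 1, 2 and 3, with number 3 at -0.68 from number 1 (SE 0.109, adjusted p = 0.00527). Its second set, 1434379_at, went the same way, from 57.8 and 59.2 in number 1 to 26.8 and 23.1 in number 3 (adjusted p = 0.00742 in the fit over all probe sets). The dimmer sets did not follow: 1422574_at was at 27.2 and 34.8 in numbers 1 and 3, and 1422575_at at 19.2 and 19.5. Averaging the 4 sets ended the call (adjusted p = 0.0703). Mxd4 and Myc, a repressor and an activator that compete for the same partner, thus had their low arrays in common.

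Mxi1 averaged 336, 283 and 229 in numbers 1, 2 and 3, with number 3 at -0.52 from number 1 (SE 0.0888, adjusted p = 0.0100). Its second set did not follow, at 45.2, 68.0 and 57.6, and averaging ended the call (adjusted p = 0.139), as did dropping the variance trend (0.0551). Mnt averaged 199, 269 and 172, so that number 2 was the highest, with an adjusted p of 0.0288. That call was lost under 5 of 8 alternatives: without a filter (adjusted p = 0.0947), after quantile normalization (0.0536), with centred arrays (0.0640), without a variance trend (0.0952) and with probe sets averaged (0.413).

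**Figure D3:**
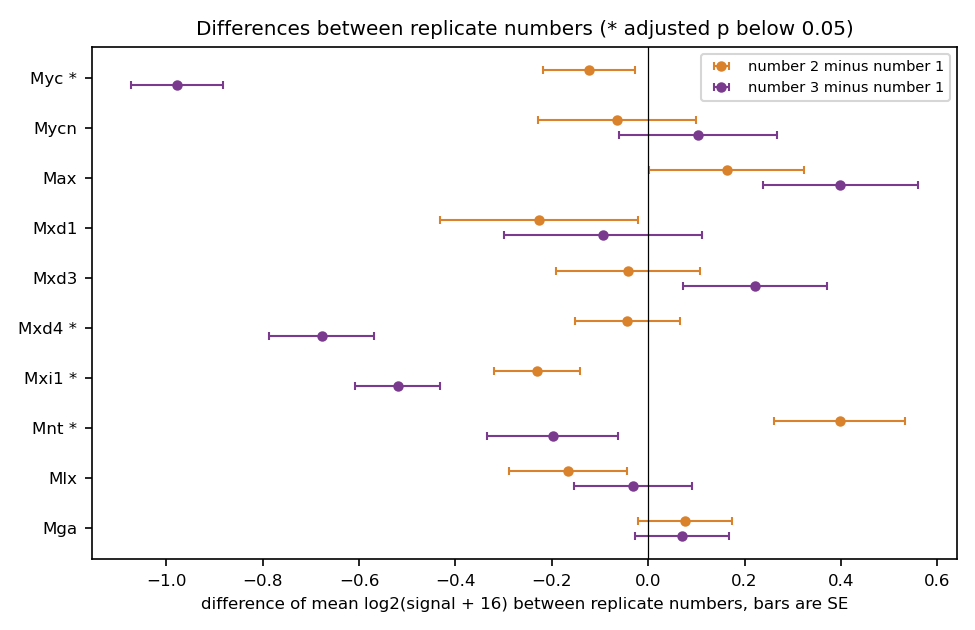
Difference of mean log2(signal + 16) of replicate numbers 2 and 3 from number 1 for the main probe set of each gene, with SE bars from limma and a star at genes whose F test passed. Myc, Mxd4 and Mxi1 lie at -0.98, -0.68 and -0.52 for number 3, and Mnt is the only called gene whose number 2 is highest.

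Secondary probe sets of Mycn and Mlx also moved with the number, away from their main sets. Mycn 1417155_at averaged 316 in number 1, 659 in number 2 and 680 in number 3 (adjusted p = 0.000345 over all probe sets), whereas 1425923_at averaged 4605, 4415 and 5125 (0.680). Mlx 1425930_a_at averaged 70.8, 70.5 and 134 (adjusted p = 0.00509), whereas 1418437_a_at averaged 110, 96.6 and 108 (0.516). Number 3 thus had the highest signals of this Mlx set, where Myc was lowest, while for Mycn 1417155_at number 1 was low and numbers 2 and 3 lay within 1 SE of each other. With probe sets averaged, Mycn and Mlx passed the F test (adjusted p = 0.00857 and 0.0160). Which transcript forms the sets read was not analysed here. Max averaged 105, 124 and 144, Mxd3 63.3, 61.5 and 78.0, and neither passed (adjusted p = 0.186 and 0.337), nor did Mxd1 (0.665) or Mga (0.774).

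**Figure D4:**
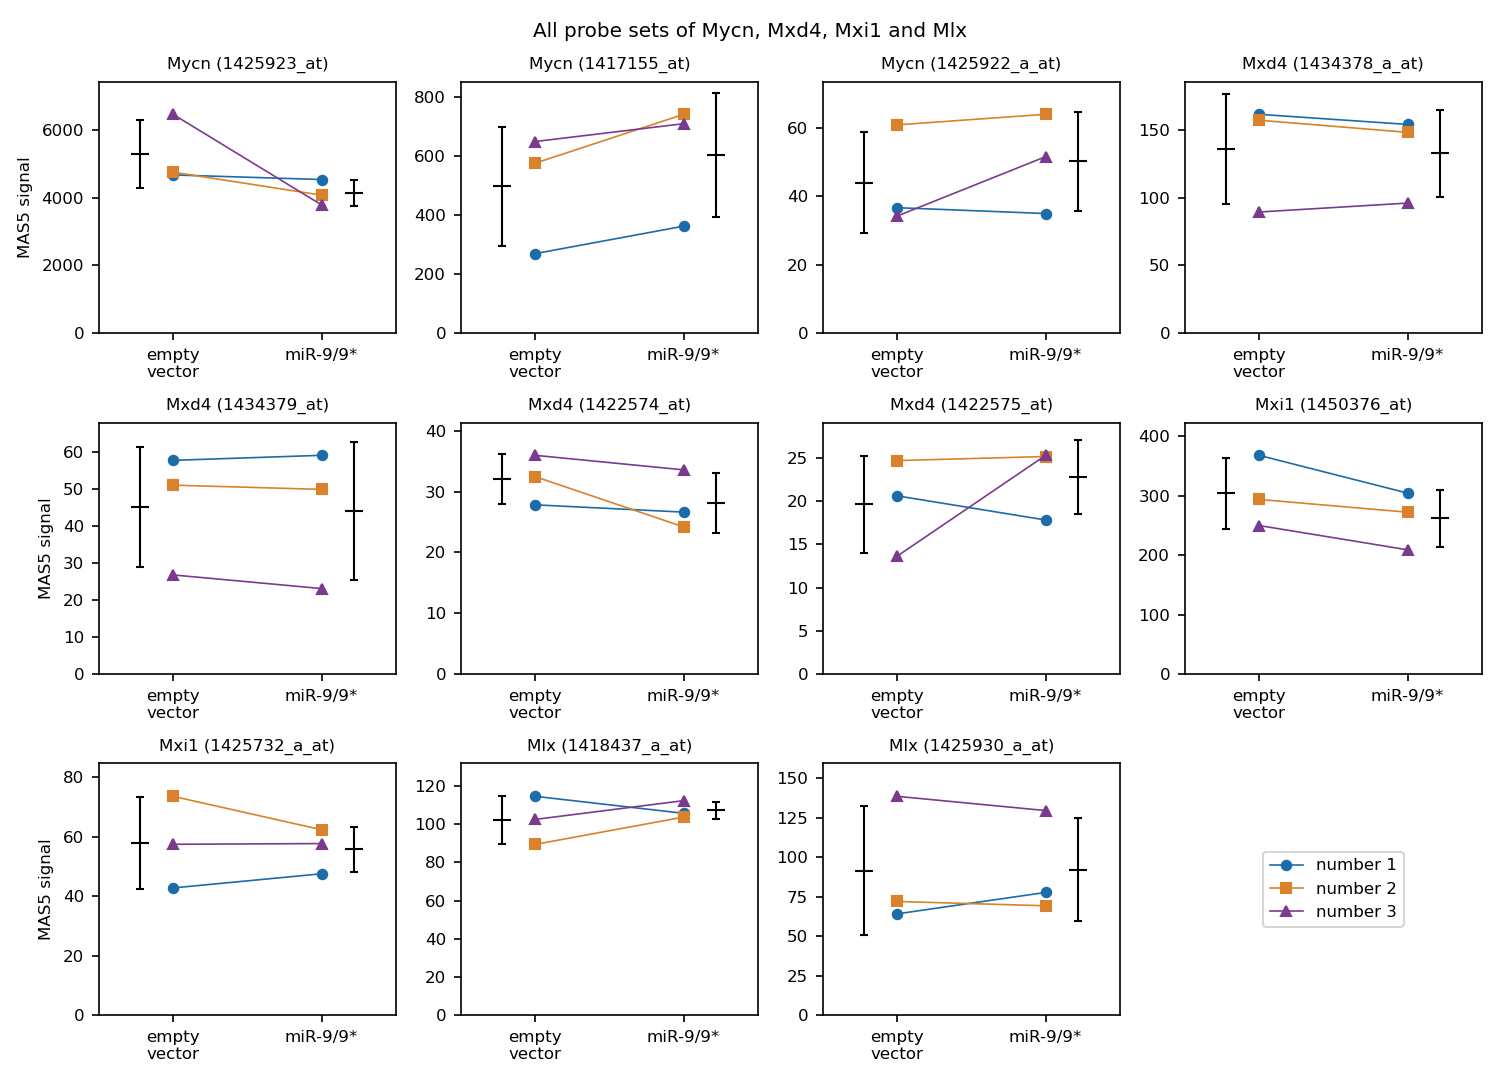
MAS5 signal (linear axes from 0) of every probe set of Mycn, Mxd4, Mxi1 and Mlx, with lines joining arrays of the same replicate number and black bars giving mean and SD of the 3 arrays of a group. The sets of a gene differ in which number is highest: Mlx 1425930_a_at is at 138 and 129 in number 3, while 1418437_a_at lies between 89.5 and 115 on all arrays.

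Profiles of log2 values over the 6 arrays were compared by Pearson's r, as a description, since same-numbered arrays share their number's deviation. Each gene entered through its main probe set only. Of all tested genes outside the network, Scamp2 (r = 0.997), Snd1 (0.995) and Wdhd1 (0.995) were most like Myc. Snd1, a nuclease-domain protein of RNA-binding complexes, was at 355, 356 and 185 with the empty vector and at 391, 356 and 219 with miR-9/9*, low in number 3 like Myc. Closest to Mxd4 were Mkrn1, Dctn4 and Ogt (r from 0.994 to 0.998). Closest to Mxi1 were Ercc6, Vps11 and Selenoo (0.971 to 0.980), and to Mnt Fbxl4, Papolg and Usp12 (0.989 to 0.992). Closest to Mycn were 2700099C18Rik, Fmc1 and Dgcr6 (0.957 to 0.971), to Mlx Rttn, Atxn10 and Cspg5 (0.973 to 0.982), and to Max Traf2, Tmem205 and Fcer1g (0.988 to 0.993). Within the network the highest values were 0.97 for Myc with Mxd4 and 0.92 for Mycn with Mxd3. The values for Mycn and Mlx hold for 1425923_at and 1418437_a_at, since 1417155_at and 1425930_a_at of these genes had other profiles.

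None of the listed genes on which the network is known to act passed the test between the groups. Of 37 measured genes that MYC is known to activate, 0 passed in limma without the block (0 at an unadjusted p under 0.05) and 0 with it (6), and their median log2 difference was 0.0050, beside 0.0091 for all genes. Groups did not overlap for 3 of the 37, Dkc1, Pes1 and Nme1, all higher with miR-9/9*, against 5.07% of all genes, and for 0 with lower values, against 4.74%. The brightest were the nucleolar proteins Npm1, at 5057, 4901 and 6894 against 5478, 5186 and 5850 (log2 difference -0.01), and Ncl, at 3721, 3713 and 4974 against 3830, 3808 and 4233 (-0.05). Both were highest in number 3, where Myc was lowest, and neither passed the F test of the number (adjusted p = 0.146 and 0.131). Of the 37 genes 9 passed that test, or 24.3%, as among all genes. Number 3 was highest for 7 of these and lowest for 2, Wdr43 and Ccnd2. The translation factors Eif4a1 and Eif4e, chosen after their values were seen, stood at 0.73 and 0.50 in number 3 relative to number 1 (adjusted p = 0.00619 and 0.00684).

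Of 7 measured genes that MYC is known to repress, 0 passed between the groups without the block (1 at an unadjusted p under 0.05) or with it (3), with a median log2 difference of -0.03. The brightest was the CDK inhibitor Cdkn1a, at 1320, 912 and 1421 against 1391, 805 and 1427, a difference of -0.03, and next the antiproliferative gene Btg1 (0.12). The 3 genes at an unadjusted p under 0.05 with the block, named after their values were seen, were Cebpa, Ndrg1 and Gadd45a. They stood at -0.91, -0.55 and 0.33 (limma, block adjusted p = 0.0625, 0.0809 and 0.160). Between the numbers 4 of 7 passed, against 24.3% of all genes, and with so few genes the count is not read as particular to the list. Cdkn1a was low in number 2 (adjusted p = 0.00204) and the CDK inhibitor Cdkn1b in number 3, at -0.51 from number 1 (0.00432). Btg2, an antiproliferative gene of the Btg1 family chosen after its values were seen, was at 97.4, 108 and 568 with the empty vector and at 124, 61.9 and 643 with miR-9/9*. Its number 3 lay 2.30 above number 1 on the log2 scale (adjusted p = 0.000157), so the genes of this list did not move in 1 direction.

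Cofactors, stability regulators and upstream regulators gave 0 calls between the groups in either fit. For the 16 cofactors of MYC and MXD proteins 1 gene had an unadjusted p under 0.05 in each fit, for the 17 regulators of MYC turnover 0 and 1, for the 10 other E-box factors 0 and 1, and for the 12 regulators of Myc transcription 0 and 4. Their median log2 differences were 0.01, 0.02, 0.07 and 0.05. The deacetylase gene Hdac2 (799, 734 and 941 against 777, 826 and 832) and the corepressor gene Sin3b (log2 difference 0.05) were the brightest cofactors, and Set and Stub1 the brightest turnover genes (0.02 and -0.06). Srebf1 and Srebf2, the sterol-responsive E-box factors, stood at 0.07 and -0.09, and Hnrnpk and Cnbp, known to bind the Myc promoter, at 0.04 and 0.07.

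Between the numbers, where 24.3% of all genes passed the F test, 4 of 16 cofactors, 3 of 17 turnover genes, 5 of 10 other E-box factors and 6 of 12 upstream regulators passed. No test of the difference between these shares was made. Of the 6 upstream regulators called, number 3 was lowest for 5: Stat3, Stat5a, Stat5b, E2f1 and Pvt1. Pvt1, a long noncoding RNA that follows Myc on the chromosome in RefSeq's order of genes, was at 153, 132 and 71.3 with the empty vector and at 169, 153 and 88.4 with miR-9/9*. It was low in number 3 in both groups, at -0.89 from number 1 (adjusted p = 0.00207), beside -0.98 for Myc. Stat5a and Stat5b, which carry the interleukin-3 signal, stood at -0.59 and -0.44 (adjusted p = 0.00758 and 0.0168). The 5 other E-box factors called were all lowest in number 3, among them Mlxip, the MONDO partner of MLX, at -0.50 (adjusted p = 0.0414). For Tfec, also among them, number 3 was only at -0.03 from number 1 (SE 0.233). Its number 2 was high, at 1.96 from number 1. The mitotic kinase gene Aurka, whose product stabilises MYCN, was highest in number 3, at 0.69 (adjusted p = 0.00121). Without number 3 the F test called 1 of 12 upstream regulators, 1 of 10 other E-box factors, 3 of 37 activated and 2 of 7 repressed genes. The genes named for their number differences here were chosen after their values were seen.

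Markers of cell types moved with the number too, and their part in the results on the network was not tested. Of the markers above the filter, 5 of 9 immature myeloid, 5 of 6 late neutrophil, 4 of 5 erythroid, 5 of 6 megakaryocyte, 3 of 3 eosinophil, 2 of 3 mast cell and 1 of 1 lymphoid genes passed the F test, against 24.3% of all genes. Sums of signals took in every listed marker with a probe set, also those below the filter. Of the 6 mast cell markers summed only 3 lay above it. Summed late neutrophil signals were 2650 to 3908 in number 1, 248 to 1007 in number 2 and 998 to 1221 in number 3. Summed eosinophil signals were 1371 to 3611, 255 to 274 and 385 to 1050. For both sums number 3 lay below number 1, as Myc did, but number 2 was low as well, where Myc was not. Ngp gave the largest part of the late neutrophil sum, and the markers of that list did not all follow it. Ltf, Ngp, S100a8 and S100a9 were lower in number 2 than in number 1. Lcn2 and Mmp9 stood at 0.59 and 0.51 in number 2 relative to number 1 on the log2 scale. Summed immature myeloid signals were 8739 to 9598, 4882 to 6533 and 7028 to 7137, and mast cell signals 159 to 204, 41.6 to 69.2 and 54.1 to 144. Megakaryocyte signals were 1587 to 1953, 2260 to 2846 and 1211 to 1495, lowest in number 3, and 5 of 5 called genes were lowest there. On the log2 scale these 5 stood at -0.64 to -0.07 in number 3 relative to number 1, with an SE of 0.101 for Gp5 at -0.07. In number 2 they stood at 0.24 to 2.28. Between the groups, summed erythroid signals were 1231 to 1299 with the empty vector and 1948 to 2146 with miR-9/9*. In limma 0 markers passed between the groups without the block, where 1 immature myeloid, 2 erythroid, 3 megakaryocyte and 1 eosinophil marker had an unadjusted p under 0.05. With it 3 of 5 erythroid, 4 of 6 megakaryocyte and 2 of 3 eosinophil markers were higher, against 1.51% of all genes, and 3 of 6 late neutrophil and 1 of 9 immature myeloid markers lower, against 1.45%. Alas2, Slc4a1, Camp, Cd3e and Kit did not exceed 1.54, 6.28, 6.92, 12.7 and 14.0 on any array. In bulk RNA, fewer cells of a type and less RNA per cell cannot be told apart.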

How the data were processed

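Messenger RNA was profiled on 6 single-colour Affymetrix arrays. The deposited intensity values are MAS5 signals per the submitters' processing notes, with no version given. Probe sets were named from a 2016 platform annotation: 34958 have 1 symbol, 932 several and 9211 none. Entrez IDs of 34754 matched RefSeq genes (GRCm38.p6). The 64 control probe sets were left out. Signals were transformed to log2(signal + 16), with no further normalization, and genes with a mean below the median of all non-control probe sets (4.86, a signal of 12.9) were left out, leaving 10208. The group comparison used limma 3.58.1 (R 4.3.3): linear models with moderated variances and a mean-variance trend, two-sided p-values, and Benjamini-Hochberg adjustment across the 10208 genes at a threshold of 0.05. It was fitted without a block (4 residual degrees of freedom) and blocked on replicate number (2). Same-numbered arrays correlated in their deviations, so the pairing is read from the data. Replicate numbers were compared by the moderated F test in the blocked model, and secondary probe sets in a fit over all probe sets above the filter. The scripts were tested on simulated data. Alternatives were other pseudocounts (1 and 64), filters (none, 60th percentile), normalizations, variance models, averaged probe sets and left-out arrays. The members and lists were chosen with earlier results of these data known. Named genes were all members and the list members called between the groups, or else the 2 brightest. The 3 genes most correlated with Myc and each member called in any fit were also named. List genes called only between replicate numbers, or named for an unadjusted p, were named after their values were seen. The number of arrays limits the precision.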

Additional observations from a re-analysis of the deposited data

How the results depend on the processing

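The count of 0 members called between the groups held under all 26 alternatives, with and without the replicate block. Mxd1 was not among the genes tested with the stricter filter or with probe sets averaged. Settings that moved other counts were these. Members called between replicate numbers went from 4 to 2 without a variance trend, and to 0 without replicate 3 (from 0 to 4 over the 3 left-out numbers, an alternative chosen after seeing the data). All genes called between the groups went from 6 to 2 with a pseudocount of 1, 0 with all genes tested (limma, 892 at an unadjusted p under 0.05), 3 without a variance trend, and 0 to 7 without single arrays: 0 without empty vector replicate 1 (399 at an unadjusted p under 0.05), 2 without replicate 2 or 3 of that group, and 1 without miR-9/9* replicate 1 or 2. With the replicate block it was 302, and with the block 282 and 293 with pseudocounts of 1 and 64, 74 without a filter, 339 with the stricter filter, 273 after quantile normalization, 266 with arrays centred, 38 without a variance trend, 187 with probe sets averaged and 162, 340 and 357 without replicate numbers 1, 2 and 3. All genes called between replicate numbers went from 2479 to 870 when the variance trend was dropped, 1057 when the filter was, and 790 to 2428 without a replicate number. In the lists, 0 genes became 1 with the block and the stricter filter (Cebpa, lower), 1 with the block and quantile normalization (Nme1, higher), and 0 to 4 with the block and without a number: Gadd45a, higher, without number 2, and Cebpa, Ndrg1 (lower), Nme1 and Tfec (higher) without number 3. The cause of these changes was not tested.

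Differences of uncalled members turned sign as follows, each with and without the block where it is a setting of both. Myc ranged from -0.20 to 0.41 without single arrays, and turned without empty vector replicate 3 (-0.20) or miR-9/9* replicate 1 (-0.09). Mycn was at 0.033 with probe sets averaged, 0.30 on 1417155_at and 0.15 on 1425922_a_at. Mxd1 was at -0.012 with a pseudocount of 1, -0.0052 after quantile normalization, -0.016 with arrays centred and -0.057 on 1455104_at. Without single arrays it turned to -0.066, -0.056 and -0.079, and with the block and a number left out to -0.0100 and -0.15, within -0.15 to 0.17. Mxd4 was at 0.13 on 1422575_at, between -0.26 and 0.18 without single arrays, with 0.11 and 0.10 among them, and at 0.0054 and 0.013 with the block and without numbers 1 and 2. Mnt was at -0.0012 with a pseudocount of 64, -0.0088 after quantile normalization and -0.014 with arrays centred. It lay between -0.18 and 0.26 without single arrays, with -0.062 and -0.073 among them, and at -0.063 and -0.10 with the block and without numbers 1 and 3. Mlx turned to -0.014 without empty vector replicate 2, within -0.014 to 0.14 without single arrays (0.15 with the block and a number left out), and Mga was at 0.0041 on 1431232_a_at. Max, Mxd3 and Mxi1 stayed below 0 under all their alternatives. Detection calls were not used here, so signal alone limits what can be said of Mxd1.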
